A study of Mus musculus with 6 samples.

Results

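The genes described here are 10 transcriptional targets of the tumour suppressor p53, read by gene symbol from the deposited table: Cdkn1a, Mdm2, Ccng1, Phlda3, Zmat3, Trp53inp1, Aen, Bbc3, Sesn2 and Btg2. The symbols were listed by name and not picked by a measured value, but earlier results of these data were known when they were chosen. All 10 were among the 18448 genes of the table, each symbol occurred once, and all 10 were among the 14544 genes tested.

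The 6 RNA libraries came from epithelial organoids of mouse jejunum on the C57BL/6 strain. Every library carried the same alleles, Villin-CreERT2 and Hnf4aflox/flox, in which an epithelial promoter drives a Cre recombinase that works only once tamoxifen or its active form 4OHT is present. The organoids received 0.5 µM 4OHT for 24 hours (3 libraries) or the vehicle DMSO (3 libraries), were passaged, were given Wnt3A protein at 200 ng/mL, and were collected on day 2. The 4OHT libraries therefore differ from the DMSO libraries in the drug, in active Cre and in Hnf4a together, and with no Cre-free or unfloxed libraries among those analysed here, these 3 cannot be told apart. The labels do not say whether replicates were separate cultures or animals, and the p-values therefore reflect only how these libraries vary, which may be technical.

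p53 is kept low in unstressed cells by the ubiquitin ligase Mdm2. DNA strand breaks activate the kinases ATM and ATR and the checkpoint kinases, p53 escapes degradation, and it binds paired decamers of DNA near its targets. Its targets stop the cell cycle, repair DNA, kill the cell or shut p53 off again. In the intestinal crypt, p21 (Cdkn1a) and Puma (Bbc3) are the classical arrest and death products of this response after irradiation.

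The p53-binding sequences that the promoter windows of these genes hold are printed first, because they show which of the genes carry the element next to a start site. RefSeq promoter windows on GRCm38.p6 (250 bases before to 50 after a start site) were found for 8 of the 10 genes, 12 windows in all; Zmat3 and Trp53inp1 had none. The windows were searched for the p53 consensus response element, 2 adjacent decamers each with the core CNNG, allowing up to 3 mismatches over 20 bases, a limit set after the matches were seen. The element reads the same on both strands. Ccng1, Cdkn1a, Bbc3 and Aen held such a sequence, as did 1.38% of all 32851 promoter windows and 1.63% of the 27025 genes with one. Capitals mark the 20 bases of the match and lower case the neighbouring bases, each written 5′ to 3′ on the gene's own strand.
Cdkn1a: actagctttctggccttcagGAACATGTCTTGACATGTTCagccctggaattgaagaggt
Ccng1: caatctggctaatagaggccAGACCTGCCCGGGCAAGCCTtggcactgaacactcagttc
Bbc3: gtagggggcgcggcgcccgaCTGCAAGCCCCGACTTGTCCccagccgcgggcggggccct
Aen: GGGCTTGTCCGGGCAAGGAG

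The Cdkn1a stretch is at chr17:29090908-29090967 on the plus strand, outside the annotated gene, with its match 51 to 32 bases before a start site. Another Cdkn1a window, at chr17:29093519-29093818, had 7 mismatches and held no match. The Ccng1 stretch is at chr11:40755442-40755501 on the minus strand, also outside the gene, with its match 195 to 176 bases before the start site. The printed matches of Cdkn1a and Ccng1 have 1 mismatch each, a limit that 22 of all windows met. The Bbc3 stretch is at chr7:16309466-16309525 on the plus strand, within an intron of the longest gene model, and its match lies 97 to 78 bases before a start site with 3 mismatches. The Aen match, also with 3 mismatches, is at chr7:78895937-78895956 on the plus strand and overlaps an annotated exon. A match of letters is a description and does not show that p53 was bound. The windows of Phlda3, Mdm2, Btg2 and Sesn2 did not hold these letters.

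Hnf4a, the gene that Cre removes here, showed 839.8, 846 and 1021 CPM in the vehicle libraries, replicates 1 to 3, against 436, 424 and 482 CPM in the 4OHT libraries (a log2 fold change -1.01, SE 0.10, edgeR adjusted p = 0.0124). CPM, the unit of these levels, is a count scaled by the size of its library, and library totals ran from 31537100 to 40276242 counts. Organoid epithelium was present in every library: the 7 epithelial markers summed to 12946 to 17490.4 CPM in DMSO and 15686 to 19170.1 CPM after 4OHT. Fibroblast, immune and endothelial markers summed to at most 7.6, 0.534 and 0.956 CPM in any library. DMSO replicate 3 stood apart in the sum of its 14 enterocyte markers. The sum was 7919 CPM there, 4778 and 4293 CPM in DMSO replicates 1 and 2, and 4055, 3085 and 4891 CPM after 4OHT. The part of this difference in the results was not tested, and values without replicate 3 are given where they change a call.

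Phlda3, Ccng1, Trp53inp1 and Zmat3 had all 3 4OHT libraries above all 3 DMSO libraries, by 1.29-fold to 1.62-fold. All 4 rose in the fit that pairs libraries of the same replicate number (a replicate block, edgeR adjusted p from 0.0216 to 0.0460). None passed in edgeR without that block (0.0520 to 0.158). The pairing was decided from these same data and no label states it, which limits what the blocked p-values show. Cdkn1a, Mdm2, Btg2, Sesn2, Aen and Bbc3 passed neither fit. The threshold for a call was 0.05 on the p-value adjusted over all genes. Neither edgeR nor limma-voom called any of the 10 without the block (0 of 10 each), beside 0.908% of all tested genes called in either direction by edgeR, while 4 were higher at an unadjusted p under 0.05 (8.65% of all genes). With the block 4 of 10 were called higher, against 3.99% of all genes. DESeq2, which has no block here, called the same 4 higher (3.62% of the genes to which it gave an adjusted p). The groups did not overlap, with 4OHT higher, for 4 of the 10 and for 12.5% of all genes. The median log2 fold change of the 10 was 0.17, beside -0.00 for all tested genes, and 9 of 10 were above 0, against 49.2% of all genes.

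**Figure D1:**
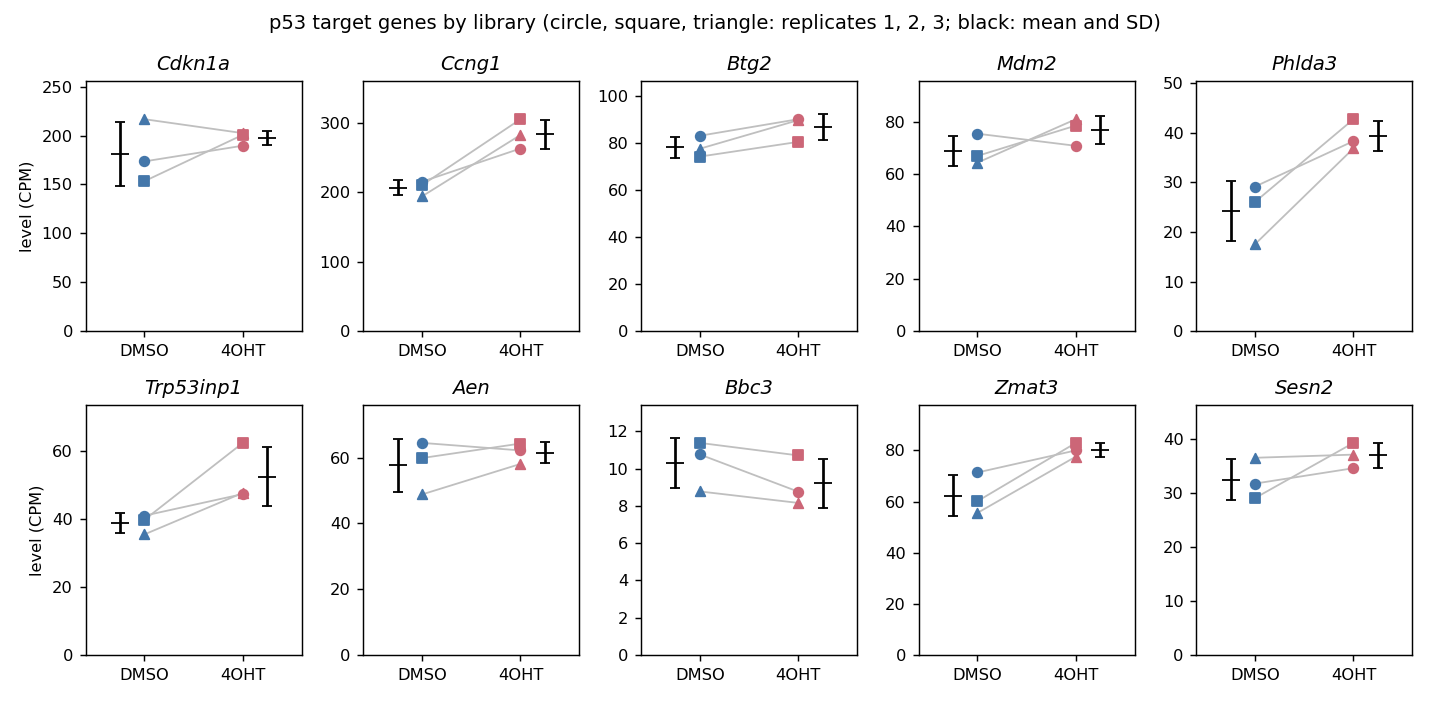
Level of each gene in CPM (axes from 0) in the 3 DMSO libraries (blue) and the 3 4OHT libraries (red); grey lines join libraries of the same replicate number and black marks are group means with SD. The groups are separate for Ccng1, Phlda3, Trp53inp1 and Zmat3 and overlap for the other 6 genes.

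With all 6 libraries, edgeR called the arrest gene Ccng1 with the block but not without it, and Cdkn1a in neither fit. Ccng1 (ENSMUSG00000020326, chromosome 11 from 40748552 to 40755311, minus strand, GRCm38) encodes cyclin G1, a p53-induced partner of protein phosphatase 2A that acts on Mdm2. The vehicle libraries held 215, 210.5 and 194 CPM in the order of their replicate numbers, and the 4OHT libraries 263, 305 and 283 CPM. The lowest 4OHT library was above the highest DMSO library, and every same-numbered pair was higher with the drug. Ccng1 averaged 207 ± 11.03 CPM with DMSO and 284 ± 21.1 CPM with 4OHT (SD, n = 3), a 1.37-fold difference with a log2 fold change of 0.46 (SE 0.075, 95% interval 0.28 to 0.63). It missed the threshold by little without the block (edgeR adjusted p = 0.0520) and rose with the block (adjusted p = 0.0216). Of the 6 fits that left out 1 library without the block, 1 called Ccng1. That was the fit without DMSO replicate 3, at 0.41 on the log2 scale (edgeR adjusted p = 0.0444). In these 6 fits the adjusted p reached 0.179.

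Cdkn1a (ENSMUSG00000023067, chromosome 17 from 29090976 to 29100727, plus strand) encodes the cyclin-dependent kinase inhibitor p21, the main arrest product of p53. Its level was 174, 153 and 217 CPM in the vehicle group, against 189.6, 201 and 202 CPM in the 4OHT group. DMSO replicate 3 was the highest of all 6 libraries and DMSO replicate 2 the lowest, so the DMSO spread enclosed all 3 4OHT libraries. The means were 181 ± 32.4 and 198 ± 6.97 CPM (log2 fold change 0.13, SE 0.122, adjusted p = 0.687), and the 95% interval of the difference ran from -0.16 to 0.41. With the block the value was 0.14 (adjusted p = 0.413). The replicate 3 pair was the one in which it was lower after 4OHT, by 0.10 on the log2 scale. With that pair left out of the blocked fit, which then rests on 4 libraries, Cdkn1a was called (0.25, adjusted p = 0.00138), and with the replicate 2 pair left out it was at 0.02 (adjusted p = 0.960). Without the block and without replicate 3 of both groups it was at 0.25 and was not called (adjusted p = 0.120).

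Btg2 (ENSMUSG00000020423, chromosome 1 from 134075170 to 134079120, minus strand) encodes an antiproliferative protein that recruits the CCR4-NOT deadenylase to messenger RNA. It was at 83.0, 74.1 and 77.5 CPM in the vehicle group, against 90.0, 80.4 and 89.6 CPM in the 4OHT group. The groups overlapped through 4OHT replicate 2, although each pair was higher after 4OHT by 0.12, 0.12 and 0.21 on the log2 scale. The log2 fold change was 0.15 (SE 0.070, 95% interval -0.02 to 0.31, adjusted p = 0.384, and 0.104 with the block).

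Mdm2, the gene of the feedback arm, did not pass. Mdm2 (ENSMUSG00000020184, chromosome 10 from 117688875 to 117710758, minus strand) encodes the ubiquitin ligase that p53 induces and that degrades p53. It was at 75.4, 66.9 and 64.4 CPM in the vehicle group, against 70.8, 78.5 and 80.9 CPM in the 4OHT group. Replicate 1 went down after 4OHT and replicates 2 and 3 went up, and the groups overlapped. The log2 fold change was 0.16 (SE 0.082, 95% interval -0.04 to 0.35, adjusted p = 0.432, and 0.325 with the block).

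Of the 4 genes tied to cell death, edgeR called Phlda3 and Trp53inp1 with the block but not without it. With all 6 libraries Aen and Bbc3 were called in neither fit. Phlda3 (ENSMUSG00000041801, chromosome 1 from 135766119 to 135769136, plus strand), which encodes a pleckstrin-homology protein that holds Akt off the membrane, had the largest difference of the 10. It was at 29.2, 26.1 and 17.6 CPM in the vehicle group, against 38.3, 42.8 and 36.9 CPM in the 4OHT group. DMSO replicate 3 was well below the other DMSO libraries, and all 4OHT libraries lay above the DMSO group. The means were 24.3 ± 6.01 and 39.3 ± 3.06 CPM, a 1.62-fold difference (log2 fold change 0.69, SE 0.178, 95% interval 0.27 to 1.11, adjusted p = 0.133), and it rose with the block (0.72, adjusted p = 0.0329). The pair differences were 0.39, 0.71 and 1.07. Without DMSO replicate 3 the difference was 0.50 and was called (adjusted p = 0.0419), the 1 call among 6 fits that left out 1 library without the block. In these 6 fits the edgeR adjusted p reached 0.347.

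Trp53inp1 (ENSMUSG00000028211, chromosome 4 from 11156431 to 11174379, plus strand) encodes a stress protein that binds p53-modifying kinases and takes part in autophagy. It was at 41.02, 39.8 and 35.5 CPM in the vehicle group, against 47.4, 62.5 and 47.7 CPM in the 4OHT group. 4OHT replicate 2 was far above the other libraries, and the remaining 4OHT libraries were still above every DMSO library. The log2 fold change was 0.44 (SE 0.122, 95% interval 0.15 to 0.73, adjusted p = 0.158), and the gene rose with the block (0.43, adjusted p = 0.0460). Without 4OHT replicate 2 and without the block it was 0.29 (adjusted p = 0.271).

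Aen and Bbc3 did not pass the test. Aen (ENSMUSG00000030609, chromosome 7 from 78895854 to 78911209, plus strand), a nuclease gene of apoptosis, was at 64.5, 59.8 and 48.8 CPM in the vehicle group, against 62.2, 64.3 and 58.1 CPM in the 4OHT group. The log2 fold change was 0.09 (95% interval -0.16 to 0.34, adjusted p = 0.740). Bbc3 (ENSMUSG00000002083, chromosome 7 from 16308393 to 16318205, plus strand) encodes Puma, a BH3-only protein that sets off mitochondrial apoptosis. It was at 10.8, 11.4 and 8.77 CPM in the vehicle group, against 8.76, 10.7 and 8.16 CPM in the 4OHT group. It was the 1 gene of the 10 with a negative log2 fold change, -0.16 (SE 0.148, 95% interval -0.51 to 0.19, adjusted p = 0.661, and 0.340 with the block). With 1 library left out it ranged from -0.29, where 4OHT replicate 2 was dropped, to -0.08, where 4OHT replicate 3 was dropped, and 0 of these 6 fits called it. Bbc3 was lower in all 3 pairs, which 24.5% of all genes were.

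Zmat3 (ENSMUSG00000027663, chromosome 3 from 32334792 to 32366014, minus strand) encodes a zinc-finger RNA-binding protein of splicing and RNA stability. It was at 71.4, 60.1 and 55.6 CPM in the vehicle group, against 80.0, 82.9 and 77.6 CPM in the 4OHT group. The 4OHT libraries were close together and all above DMSO replicate 1, the highest of its group. The means were 62.4 ± 8.14 and 80.2 ± 2.69 CPM (log2 fold change 0.36, SE 0.095, 95% interval 0.14 to 0.59, adjusted p = 0.142), and Zmat3 rose with the block (0.37, adjusted p = 0.0434). Sesn2 (ENSMUSG00000028893, chromosome 4 from 132492032 to 132510501, minus strand) encodes a leucine sensor that restrains mTORC1 and is also a target of the stress factor ATF4. It was at 31.8, 29.1 and 36.5 CPM in the vehicle group, against 34.6, 39.3 and 37.1 CPM in the 4OHT group. DMSO replicate 3 reached into the 4OHT range, and the log2 fold change was 0.19 (95% interval -0.04 to 0.42, adjusted p = 0.424, and 0.243 with the block). With the replicate 3 pair left out of the blocked fit Sesn2 was called (0.27, adjusted p = 0.00771), and with the replicate 2 pair left out it was at 0.07 (adjusted p = 0.771). Without DMSO replicate 2 and without the block it was at 0.12 (adjusted p = 0.676).

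**Figure D2:**
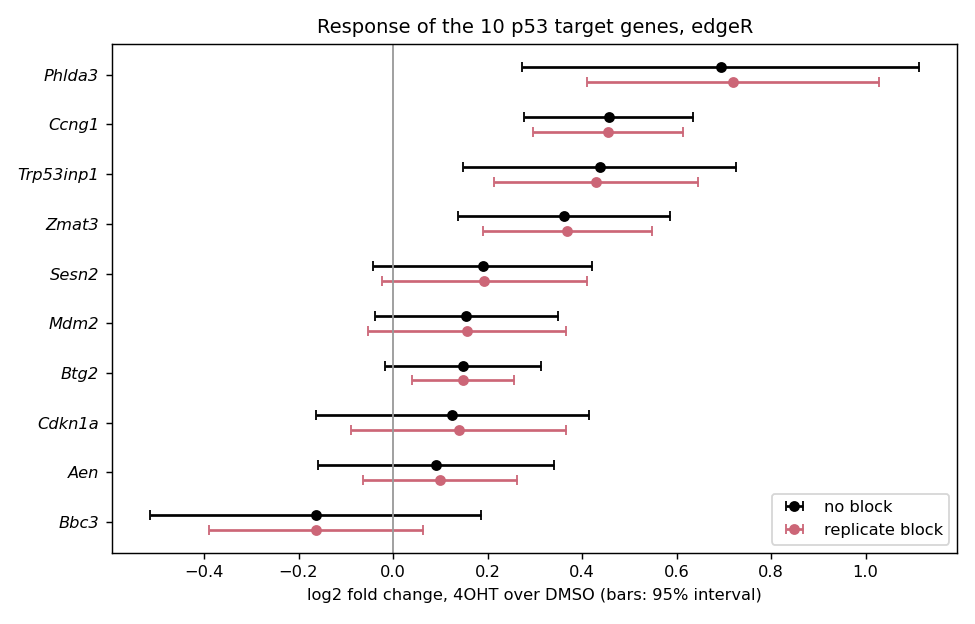
log2 fold change of 4OHT over DMSO for each gene with its 95% interval, from edgeR without a block (black) and with the replicate block (red). The intervals of Phlda3, Ccng1, Trp53inp1 and Zmat3 lie above 0 in both fits, those of Cdkn1a, Mdm2, Sesn2, Aen and Bbc3 include 0 in both, and that of Btg2 lies above 0 only with the block.

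By pairs, 6 of the 10 genes (Ccng1, Phlda3, Trp53inp1, Zmat3, Sesn2 and Btg2) were higher after 4OHT in all 3, as were 25.3% of all tested genes. Differences in response between the 10 genes were not tested. Calls of the blocked fit depended on the pairs used. With the replicate 1 pair left out the same 4 genes were called, in a fit that called 275 genes higher among all tested. With the replicate 2 pair left out 0 of the 10 were called (edgeR adjusted p from 0.127 to 0.209 for those 4). That fit called only 34 genes higher among all tested. With the replicate 3 pair left out 6 were called, namely those 4 with Cdkn1a and Sesn2 (10.1% of all genes were called higher in that fit). Without the block, leaving out DMSO replicate 3 gave 2 calls, Phlda3 and Ccng1 (1.71% of all genes higher), and leaving out replicate 3 of both groups gave the same 2 (2.59%). In the authors' deposited table the edgeR adjusted p was 0.0039 for Phlda3, 0.006 for Ccng1, 0.05 for Trp53inp1 and 0.087 for Zmat3. The DESeq adjusted p in the authors' deposited table was 0.014 for Phlda3, 0.064 for Ccng1, 0.26 for Trp53inp1 and 0.29 for Zmat3.

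**Figure D3:**
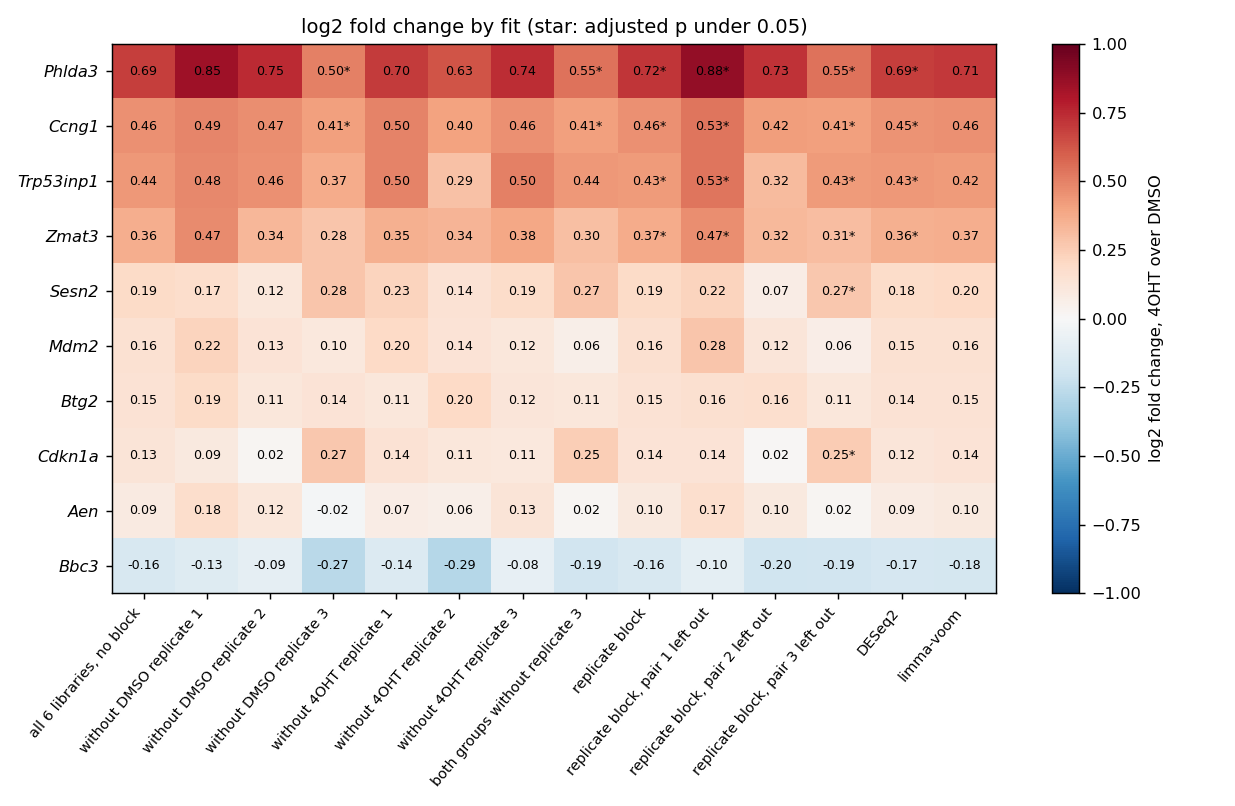
log2 fold change of each gene (rows) in each fit (columns), coloured from blue (lower after 4OHT) to red (higher), with a star where the adjusted p was under 0.05. Phlda3, Ccng1, Trp53inp1 and Zmat3 were positive in every fit drawn, and Aen changed sign without DMSO replicate 3.

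Levels were compared between genes as RPKM, which are CPM divided by the length of the annotated exons in kilobases. In DMSO, Ccng1 (58.8 ± 3.14 RPKM, SD, n = 3) and Cdkn1a (51.0 ± 9.11) were the most abundant, followed by Btg2 (28.5 ± 1.63), Phlda3 (15.6 ± 3.86), Mdm2 (13.6 ± 1.14), Aen (9.95 ± 1.39), Sesn2 (9.34 ± 1.09), Trp53inp1 (5.99 ± 0.448), Zmat3 (5.45 ± 0.711) and Bbc3 (4.85 ± 0.641). Neighbours closer than the sum of their SDs were Ccng1 and Cdkn1a, Phlda3 and Mdm2, Aen and Sesn2, Trp53inp1 and Zmat3, and Zmat3 and Bbc3. After 4OHT the first 5 kept these places, and the levels of Ccng1 (80.8 ± 6.01 RPKM) and Cdkn1a (55.6 ± 1.96 RPKM) were further apart than the sum of their SDs.

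p53 itself and its regulators showed no call. For these and the following lists, levels are group means in DMSO and then 4OHT, and the first value in parentheses is the log2 fold change. Of 14 listed genes 12 were tested, and 0 were called without or with the block, 0 at an unadjusted p under 0.05 without it. Of all tested genes, 0.908% were called without the block, and 3.99% higher and 3.00% lower with it. For 12 genes, 0 calls in either fit is near these shares. At an unadjusted p under 0.05, 1258 of all 14544 tested genes were higher and 923 lower. Trp53, the gene of p53, was at 190.1, 194 and 162 CPM in the vehicle group, against 167, 181 and 154 CPM in the 4OHT group. It was lower in all 3 pairs with overlapping groups (log2 fold change -0.12, 95% interval -0.34 to 0.10, adjusted p = 0.595, and 0.169 with the block). Mdm4, which holds p53 inactive beside Mdm2, was at 116 and 118 CPM (0.02, adjusted p = 0.931). Ppm1d, a p53-induced phosphatase that resets the response, was at 18.5 and 17.6 CPM (-0.07, adjusted p = 0.757). The damage-response genes Trp53bp1 (0.17, adjusted p = 0.367), Chek2 (-0.14, 0.504) and Atm (0.07, 0.665) also missed the threshold. The p53 relatives Trp63 and Trp73 had at most 6 counts in any library and were not tested. p53 is controlled mainly through its protein, which RNA does not show.

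A further list of 30 p53 targets had 28 tested genes, of which edgeR called 0 without the block and 2 higher with it (7.14%, beside 3.99% of all tested genes). Of the 28, 20 had a log2 fold change above 0, the median was 0.13 (-0.00 for all genes), and the unadjusted p was under 0.05 for 8, all of them higher (28.6%, beside 8.65% of all tested genes). The 2 that rose with the block were Polk, a translesion DNA polymerase, and Tnfrsf10b, the mouse death receptor for TRAIL. Polk was at 19.1, 16.4 and 17.0 CPM in the vehicle group, against 23.5, 22.6 and 24.7 CPM in the 4OHT group (log2 fold change 0.43, adjusted p = 0.0721, and 0.0300 with the block). Tnfrsf10b was at 40.4, 34.0 and 34.9 CPM and at 47.9, 40.96 and 50.02 CPM (0.34, edgeR adjusted p = 0.177, or 0.0448 under the block). Both had groups that did not overlap. Apaf1, the apoptosome scaffold, was at 77.2 ± 2.75 and 87.4 ± 1.17 CPM (0.18, edgeR adjusted p = 0.165, or 0.0588 under the block). Ei24, an autophagy protein gene, was at 125 and 140.2 CPM (0.16, edgeR adjusted p = 0.166, or 0.0696 under the block). Of the listed targets the lowest log2 fold changes were those of Ephx1 (-0.35) and Gadd45a (-0.32), named after their values were seen. Ephx1 was at 98.5, 98.7 and 246.98 CPM in the vehicle group, against 95.6, 107 and 147 CPM in the 4OHT group. Its replicate 1 and 2 pairs differed by -0.04 and 0.11 on the log2 scale and its replicate 3 pair by -0.75. Replicate 3 was the highest library of both groups, and its part in the low value was not tested.

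**Figure D4:**
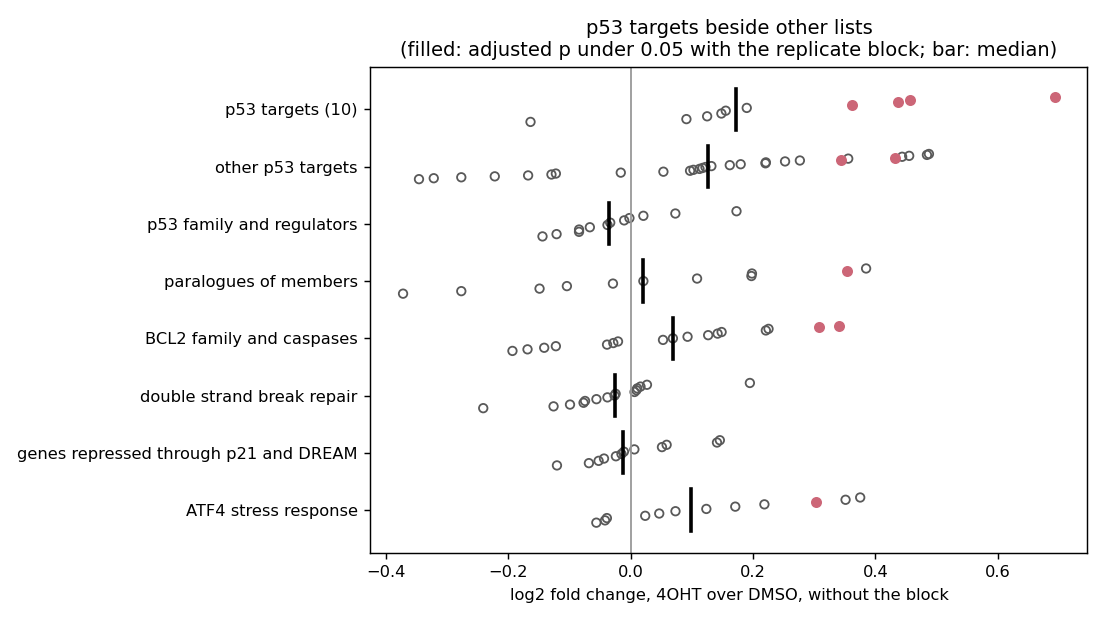
log2 fold change (4OHT over DMSO, fit without the block) of each tested gene in 8 lists, with filled points for an adjusted p under 0.05 with the replicate block and a black bar at the list's median. The medians were 0.17 for the 10 p53 targets, 0.13 for the further targets and -0.04 for p53 and its regulators.

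Paralogues are relatives of these genes by descent. Of 11 tested paralogues edgeR called 0 without the block and 1 higher with it (9.09%, beside 3.99% of all tested genes). The median log2 fold change was 0.02. Trp53inp2, the paralogue of Trp53inp1 and an autophagy regulator, went from 45.7 ± 3.96 to 58.3 ± 2.84 CPM (0.35, edgeR adjusted p = 0.0984, or 0.0393 under the block). Cdkn1c, which encodes p57, was at 11.2 and 8.66 CPM (-0.37, edgeR adjusted p = 0.231, or 0.0581 under the block). Ccng2 (0.20, adjusted p = 0.393) and Phlda1 (0.38, adjusted p = 0.461) also missed the threshold in both fits.

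BCL2 family and caspase genes were listed as genes of apoptosis. The list does not separate genes that promote cell death from genes that restrain it, so its counts give no direction for cell death. Of 17 tested BCL2 family and caspase genes, 0 were called without the block and 2 higher with it (11.8%, beside 3.99% of all tested genes). These 2 were Bcl2 and Bcl2l1. Of the 17, 10 had a log2 fold change above 0 and 7 below. Bcl2 went from 23.8 ± 1.34 to 29.4 ± 2.30 CPM (0.31, edgeR adjusted p = 0.151, or 0.0373 under the block) and Bcl2l1 from 76.4 ± 14.8 to 96.8 ± 8.37 CPM (0.34, edgeR adjusted p = 0.333, or 0.0465 under the block). Mcl1 (0.15, adjusted p = 0.319) and Bax, the p53-induced pore protein gene (0.22, adjusted p = 0.319), did not pass. Of 12 cell cycle genes that p21 is known to silence through the DREAM complex, 0 were called in either fit and 0 at an unadjusted p under 0.05, with a median of -0.01. Of all tested genes, 0.908% were called without the block, and 3.99% higher and 3.00% lower with it. For 12 genes, 0 calls in either fit is near these shares. At an unadjusted p under 0.05, 1258 of all 14544 tested genes were higher and 923 lower. Mean levels of Cdc20 were 160.02 ± 9.05 in DMSO and 176 ± 7.85 CPM after 4OHT (0.14, adjusted p = 0.372), those of Birc5 79.9 and 73.5 (-0.12, 0.382), Cdc25c 16.2 and 17.9 CPM (0.15, 0.560) and Ccnb2 68.1 and 65.0 CPM (-0.07, 0.779).

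Genes of double strand break repair gave 0 calls among 15 tested, without or with the block, and 0 at an unadjusted p under 0.05, with a median of -0.03. Of all tested genes, 0.908% were called without the block, and 3.99% higher and 3.00% lower with it. In a list this short, 0 calls in either fit is near these shares. At an unadjusted p under 0.05, 1258 of all 14544 tested genes were higher and 923 lower. The recombination gene Brca2 was at 22.01 and 18.6 CPM (-0.24, adjusted p = 0.455) and H2afx, the histone marked at breaks, at 109.99 and 104 CPM (-0.08, 0.594). Xrcc5 (0.19, adjusted p = 0.608) and Lig4 (-0.13, 0.652) of the end-joining pathway did not pass either. The ATF4 stress genes were listed because Sesn2 answers to ATF4 as well. Of these 12, edgeR called 0 without the block and 1 higher with it (8.33%, beside 3.99% of all tested genes). That gene was Asns, asparagine synthetase, at 168 ± 16.7 and 208 ± 18.5 CPM (0.30, edgeR adjusted p = 0.211, or 0.0253 under the block). Ppp1r15a was at 7.65 and 9.76 CPM (0.35, edgeR adjusted p = 0.177, or 0.0844 under the block).

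The 14 enterocyte genes, whose sum but not each member set DMSO replicate 3 apart, were lower on average after 4OHT. In DMSO replicates 1 to 3, Sis was at 906, 878 and 2573 CPM and Krt20 at 435, 307 and 360 CPM. All 14 had a negative log2 fold change (median -0.55), 0 were called without the block, and 4 fell with it, beside 3.00% of all tested genes called lower with the block. Slc15a1 (-0.69, adjusted p = 0.120, and 0.0184 with the block), Apoa1 (-0.77, 0.152, and 0.00581) and Mep1b (-0.57, 0.185, and 0.0212) were among them, with Fabp2 (-0.35, 0.641, and 0.0238), which was named after its values were seen. Of 12 proliferation and stem cell genes 0 were called without the block and 1 (8.33%) fell with it, Axin2 (-0.34, adjusted p = 0.586, and 0.0265 with the block). The list went both ways, with 6 above 0, 6 below and a median of -0.01. Its smallest p-value was that of the stem cell gene Olfm4 (-0.49, edgeR adjusted p = 0.264, or 0.158 under the block), which was higher after 4OHT in the replicate 1 pair and lower in the other pairs. Of the 7 epithelial markers 0 were called without the block and 1 (14.3%) fell with it, Epcam (-0.27, adjusted p = 0.144, and 0.0446 with the block). Of the 7, 5 had a log2 fold change above 0. Krt19, a keratin gene, was at 4010 ± 590.3 and 5382 ± 614.9 CPM with groups that did not overlap (0.42, edgeR adjusted p = 0.220, or 0.0831 under the block). The part of these genes in the levels of the p53 targets was not tested. In bulk libraries fewer cells of a type and less RNA per cell cannot be told apart.

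The 3 genes whose profile over the 6 libraries was most like that of Cdkn1a were Ap5b1 (Pearson r = 0.973), Ndst2 (0.970) and Zbtb18 (0.968), on log2 CPM among 9083 genes of at least 10 CPM outside the 10. The libraries share treatment and replicate number, and 64 of those genes had an r over 0.9. As with Cdkn1a, DMSO replicate 3 was the highest library of Ap5b1 (19.6 CPM), Ndst2 (24.3 CPM) and Zbtb18 (67.7 CPM). None of the 3 passed the test between the groups (edgeR adjusted p from 0.612 to 0.853).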

How the data were processed

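RNA was purified on columns, selected on poly(A) and made into directional libraries, per the labels' protocols. STAR 2.4.0f1 and GRCm38 are named in the submitters' processing notes. The counting program and its strand setting are not given in the sources used here; 1 annotated gene shares exon bases with one of the 10, a transcript of unsettled type opposite Cdkn1a, which is not in the table. The authors deposited raw counts per gene, and every gene had at least 10 counts in total, per the file headers and values. They also deposited a log2 fold change and p-values from DESeq and edgeR, per the file headers, which are quoted only as such.

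Counts were tested in R 4.3.3 with edgeR 4.0.16 over all genes (filterByExpr, TMM scaling, quasi-likelihood F test, 4OHT against DMSO, two-sided, Benjamini-Hochberg over 14544 genes). The standard error and 95% interval were derived from the F statistic. The fit was checked on simulated data. Alternatives were DESeq2 1.42.0, limma-voom (limma 3.58.1), other scalings and filters, libraries left out, and the replicate number as a block. Deviations from group means correlated at 0.30, 0.33 and 0.43 between DMSO and 4OHT libraries of the same number. Between DMSO and 4OHT libraries of different number the correlations ran from -0.37 to 0.07. Libraries of one number were therefore treated as pairs, a decision from these data that no label states. Deviations sum to 0 within each group, so these correlations are not independent of each other. Coordinates and exon lengths came from GENCODE mouse release 21 (GRCm38), which held 18351 of the 18448 identifiers. Promoter windows came from RefSeq on GRCm38.p6.

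All 10 genes are given in full. From each other list up to 4 tested genes with the smallest p-values are named, with Hnf4a, Trp53, Mdm4 and Ppm1d in any case. The genes and lists were chosen with earlier results of these data known, and some genes stand in more than 1 list.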

Additional observations from a re-analysis of the deposited data

How the results depend on the processing

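The number of called genes was 132 and the number of called p53 targets 0 with all libraries and no block. With the replicate block these were 1017 and 4, and with DESeq2 762 and 4. A filter at 10 CPM left 60 called genes and 0 of the p53 targets. Leaving out 1 library gave 4 to 340 genes and 0 to 2 p53 targets. Leaving out replicate 3 of both groups gave 601 and 2. In the blocked fit, leaving out the pair numbered 1, 2 or 3 gave 638, 44 and 2678 genes, with 4, 0 and 6 p53 targets. Scaling by library totals, RLE scaling, limma-voom and no filter gave 123 to 138 genes and 0 p53 targets. Some settings hold fewer libraries or genes, and the causes of these differences were not tested. Across the 17 alternatives Phlda3 and Ccng1 were called in 6 each, Trp53inp1 and Zmat3 in 4 each and Cdkn1a and Sesn2 in 1 each. Aen was the 1 gene whose difference changed sign, with log2 fold changes of -0.022 (without DMSO replicate 3, adjusted p = 0.907) to 0.18 when 1 library was left out. The range for Cdkn1a in those fits was 0.02 to 0.27. The 10 genes had counts of 270 to 11222 per library, and a fit of 3 against 3 with no block left 95% intervals of 0.33 to 0.84 log2 units in width. The parts of counting and of the spread between libraries in these widths were not tested.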

Other observations

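The INK4 and ARF locus genes, which act beside the p53 pathway, gave 0 calls among 4 tested genes. Of all tested genes, 0.908% were called without the block, and 3.99% higher and 3.00% lower with it, so 0 of 4 is near these shares. Cdkn2a, whose transcripts encode p16 and the Mdm2 inhibitor p19ARF, was at 3.64, 3.59 and 4.06 CPM in the vehicle group, against 4.5, 6.18 and 7.12 CPM in the 4OHT group. Every 4OHT library was above every DMSO library (log2 fold change 0.66, SE 0.188, edgeR adjusted p = 0.166, and 0.0588 with the replicate block). Counts per gene do not separate its 2 products. Cdkn2c was at 17.2 and 15.5 CPM (-0.15, adjusted p = 0.383), Cdkn2d at 3.66 and 4.12 CPM (0.18, 0.722) and Cdkn2b at 58.5 and 64.2 CPM (0.14, 0.833).

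Immediate early genes, to which Btg2 belongs in many cell types, had 0 of 9 called without or with the block. Over all tested genes the shares were 0.908% without it, and 3.99% higher and 3.00% lower with it. The median log2 fold change was 0.52, and 3 were higher at an unadjusted p under 0.05 (33.3%, beside 8.65% of all tested genes). Ier3 was at 21.7, 17.8 and 11.5 CPM in the vehicle group, against 28.6, 27.5 and 30.9 CPM in the 4OHT group (0.77, adjusted p = 0.150, and 0.0637 with the block). Dusp1 was at 2.93 and 4.42 CPM (0.60, adjusted p = 0.150) and Junb at 86.7 and 113 CPM (0.39, adjusted p = 0.225).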
